A study of Mus musculus with 6 samples.

Results

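The heptad is a group of 7 transcription factors that sit together on regulatory DNA of blood stem and progenitor cells: Tal1, Lyl1, Lmo2, Gata2, Runx1, Erg and Fli1. Its genes were read from arrays of bone marrow cells of 3 mice with p65 knockout and 3 p65 wild-type mice. Each gene had exactly 1 row with a single gene symbol in the array annotation, and no row shared by several genes named any of them, so all 7 of 7 were measured, of 19938 genes in all.

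Every mouse of both groups gave 1 array of bone marrow cells of the sort lineage-Flk2-c-kit+Sca-1+, a gate rich in blood stem cells and early progenitors. The knockout mice lacked p65, the RelA subunit of the transcription factor NF-κB, and the series title places its deletion in the hematopoietic compartment. The promoter that drives the deletion, the strain and the age of the mice are not given in the sources used here. Values are log2 signals normalized by the authors, so a difference of 1 is a doubling, and a level of one gene cannot be set against that of another because each probe set has its own brightness.

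Tal1 and Lyl1 are basic helix-loop-helix proteins that pair with E proteins and bind the E-box. Lmo2 binds no DNA itself: its LIM domains, with Ldb1, bridge the Tal1 or Lyl1 dimer to a GATA factor, here Gata2. Runx1 binds with its partner Cbfb, and Erg and Fli1 are closely related ETS proteins. Members of the heptad bind regulatory elements of one another's genes, and the blood system depends on several of them at its origin or for the upkeep of stem cells.

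Promoter sequences show the kind of DNA letters through which the members can meet at their own genes. RefSeq promoter windows of the assembly GRCm38.p6, each running from 250 bases before a start site to 50 bases from it on, were given for 5 of the members, in 10 windows: Tal1, Lyl1, Gata2, Runx1 and Erg. Lmo2 and Fli1 had no entry. The windows were searched on both strands for the E-box (CANNTG), for GATA letters (AGATAA with its variants AGATAG and further TGATAA and further TGATAG), for ETS letters (CCGGAA with its variant CAGGAA), for RUNX letters (TGTGGT with its variant TGCGGT) and for the NF-κB consensus by name. No match overlapped another in the 3 windows shown. These 3 windows were picked after the search because they held matches to the most kinds of motif or, for Lyl1, the most ETS matches. Capitals mark matches, and all are written 5′ to 3′ along the gene's strand. Runx1 is its upstream window (chr16:92826025-92826324, minus strand), Lyl1 its only one (chr8:84701207-84701506, plus strand), and Erg the most downstream of its 3 (chr16:95459299-95459598, minus strand).
Erg: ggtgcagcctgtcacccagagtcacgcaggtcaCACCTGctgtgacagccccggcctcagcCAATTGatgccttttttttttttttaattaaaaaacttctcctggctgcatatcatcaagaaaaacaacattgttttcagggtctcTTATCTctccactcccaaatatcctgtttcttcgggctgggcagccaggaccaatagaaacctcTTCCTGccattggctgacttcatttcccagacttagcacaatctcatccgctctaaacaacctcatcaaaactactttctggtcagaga
Runx1: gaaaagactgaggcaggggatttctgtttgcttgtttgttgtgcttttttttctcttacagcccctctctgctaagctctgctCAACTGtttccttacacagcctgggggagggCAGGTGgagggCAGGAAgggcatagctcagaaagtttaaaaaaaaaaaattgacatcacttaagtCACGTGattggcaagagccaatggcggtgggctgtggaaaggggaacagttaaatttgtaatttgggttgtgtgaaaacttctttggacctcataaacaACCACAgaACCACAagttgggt
Lyl1: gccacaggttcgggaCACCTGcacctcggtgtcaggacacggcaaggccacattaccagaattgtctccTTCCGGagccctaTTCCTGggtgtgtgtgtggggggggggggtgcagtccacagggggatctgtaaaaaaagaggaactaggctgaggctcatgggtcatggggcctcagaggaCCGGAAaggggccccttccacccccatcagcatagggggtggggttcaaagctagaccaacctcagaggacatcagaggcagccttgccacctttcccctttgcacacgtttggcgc

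The Erg window held 2 E-box matches, 1 GATA match and 1 ETS match, and the other 2 windows of Erg held none of the 5 motifs. The Runx1 window held 3 E-box matches, 1 ETS match and 2 RUNX matches. The Lyl1 window held 1 E-box and 3 ETS matches. Over all 10 windows of the members, 5 held an E-box match, 4 an ETS match, 2 a GATA match and 1 a RUNX match. The NF-κB consensus was matched in 1 of the 10, the downstream one of Tal1. Such matches are common: of 32851 promoter windows of this length, 72.3% held the E-box, 41.4% the ETS letters, 29.8% the GATA letters, 22.4% the RUNX letters and 8.46% the NF-κB consensus. The arrays measured whole genes and do not tell which start site was used.

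One array has to be named before the values. Wild-type replicate 1 correlated with the other arrays at r = 0.951 to 0.963 across genes, against 0.982 to 0.994 among the other five, and its signals had the narrowest spread (SD 2.03, against 2.22 to 2.29). The knockout arrays had the widest spreads, 2.26 to 2.29, against 2.03 to 2.22 in the wild-type arrays, so signal range and genotype cannot be told apart. The deleted gene, Rela, had log2 signals of 7.33, 7.48 and 7.35 in the knockout arrays and 7.52, 7.89 and 7.92 in the wild-type arrays. Every knockout value lay below every wild-type value, by 0.39 in the means, without passing the threshold of an adjusted p under 0.05 (limma adjusted p = 0.209). It passed without wild-type replicate 1 (log2 fold change -0.51, limma adjusted p = 0.04). Probes outside the deleted stretch can keep their signal, so this is a weak check of the labels.

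Of the 7 heptad genes, none passed limma with all 6 arrays, at an adjusted p under 0.05 or at an unadjusted p under 0.05. In that fit 0.818% of all genes passed the adjusted threshold (0.687% higher, 0.13% lower) and 21.6% the unadjusted one (13.8% higher, 7.76% lower). With the replicate number as a block none of the 7 passed either, where 1.87% of all genes did (1.41% higher, 0.451% lower). The fit that left out wild-type replicate 1 called Erg lower and none of the other 6, where 4.66% of all genes passed, 3.28% as higher and 1.38% as lower. At an unadjusted p under 0.05 it was again Erg that passed, beside 24.1% of all genes (13.6% higher, 10.5% lower). Erg then stood at 0.649 of its wild-type signal. None of the 7 genes separated all knockout from all wild-type arrays, as 34.6% of all genes did (19.2% with knockout higher, 15.4% lower). Against wild-type replicates 2 and 3 only, 1 of 7 did, again Erg, as did 42.5% of all genes (21.1% higher, 21.5% lower). With all arrays, the log2 fold changes ran from -0.43 for Erg to 0.32 for Gata2, with a median of 0.00, beside a median of -0.04 over all genes. Leaving out wild-type replicate 1, they ran from -0.62 for Erg to 0.03 for Gata2, with a median of -0.08 beside -0.03 over all genes. The members' median was -0.23 under quantile normalization, -0.29 under cyclic loess normalization and 0.15 with arrays centred on their medians. Over all genes the medians were 0.02, -0.01 and 0.10 in the same 3 settings, and the centring adds 0.15 to every gene alike.

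**Figure D1:**
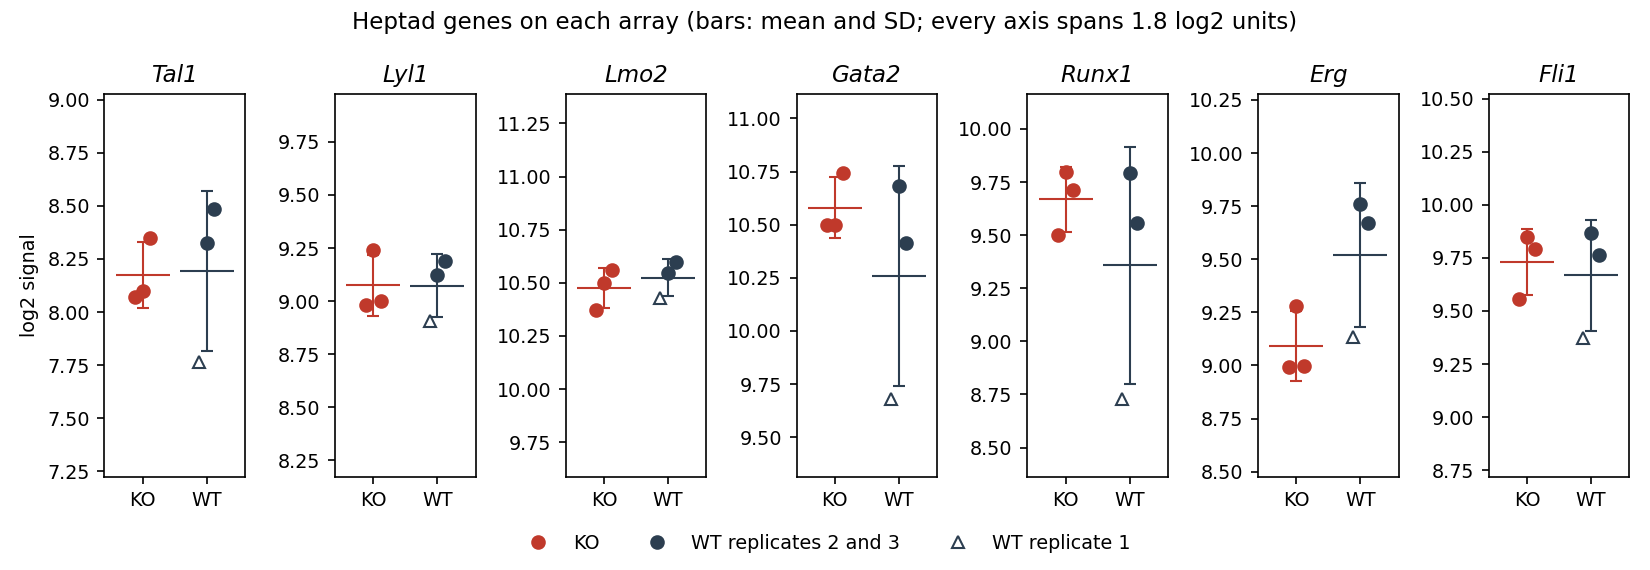
Log2 signal of each heptad gene on each array, with 3 KO arrays on the left and 3 WT arrays on the right of each panel. Horizontal bars are group means, error bars are SDs, and the open triangle is WT replicate 1; every panel spans 1.8 log2 units around its own values. WT replicate 1 is the lowest array for 5 of the 7 genes, and the KO values of Erg lie below those of WT replicates 2 and 3.

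Tal1, also called Scl, is needed for the first blood cells of the embryo. It had log2 signals of 8.07, 8.10 and 8.35 in the knockout arrays, against 7.77, 8.33 and 8.48 in the wild-type arrays. The groups overlapped, since wild-type replicate 1 was the lowest of all and the other two wild-type arrays lay near and above the top of the knockout range. The means were 8.17 ± 0.15 in knockout and 8.19 ± 0.38 in wild-type (SD, n = 3 each), a log2 fold change of -0.02 (SE 0.21, limma adjusted p = 0.958). It was -0.23 without wild-type replicate 1, with a 95% interval of -0.53 to 0.06 (limma adjusted p = 0.305).

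Lyl1, the close relative that can stand in for Tal1 in adult stem cells, had 8.98, 9.24 and 8.9997 in the knockout arrays and 8.91, 9.12 and 9.19 in the wild-type arrays. The ranges of both groups lay nearly on top of each other. The log2 fold change was 0.00 (SE 0.15, limma adjusted p = 0.993), with a 95% interval of -0.34 to 0.34, and -0.08 without wild-type replicate 1. The interval leaves room for a change of up to 0.34 log2 units in either direction.

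Lmo2, the bridging protein, had the narrowest spread of the 7 genes. Its signals were 10.37, 10.50 and 10.56 in the knockout arrays and 10.43, 10.54 and 10.60 in the wild-type arrays. The arrays of both groups interleaved, and wild-type replicate 1 did not stand apart for this gene. The log2 fold change was -0.05 (SE 0.13, limma adjusted p = 0.83), with a 95% interval of -0.35 to 0.26, and -0.09 without wild-type replicate 1.

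Gata2, a zinc finger factor needed for stem cell survival and also used by mast cells and basophils, had 10.50, 10.50 and 10.74 in the knockout arrays, against 9.68, 10.68 and 10.41 in the wild-type arrays. Wild-type replicate 1 lay far below all others, and the other two wild-type arrays lay among or just under the knockouts. The means were 10.58 ± 0.14 in knockout and 10.26 ± 0.52 in wild-type (SD, n = 3 each). The log2 fold change of 0.32 (SE 0.25, limma adjusted p = 0.428) shrank to 0.03 without wild-type replicate 1 (95% interval -0.28 to 0.35).

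Some markers of mast cells and basophils rose in the knockout arrays, while Gata2 did not pass. The mean log2 signal over the 10 measured of 11 listed markers was 7.12, 7.01 and 7.28 in the knockout arrays and 6.21, 6.35 and 6.11 in the wild-type arrays. Of the 10, 3 rose and 0 fell in limma: Fcer1a, a chain of the high-affinity IgE receptor (log2 fold change 3.05), Ms4a2, another chain of it (1.73), and Hdc (1.66). In that fit 0.687% of all genes were called higher and 0.13% lower. The call of Ms4a2 was lost with quantile normalization (limma adjusted p = 0.0624), when any one knockout array was left out (limma adjusted p of 0.158 to 0.212) and without wild-type replicate 3 (limma adjusted p = 0.0812). With the replicate number as a block 5 passed as higher, those 3 with Mcpt8 and Prss34, where 1.41% of all genes did. Tpsb2, Cma1, Tpsab1 and Slc18a2 had negative log2 fold changes (-0.34 to -0.07), and Tpsab1 was the 1 marker in the dimmest of 3 equal classes of genes by mean signal. The part of these cells in the signal of Gata2 was not tested.

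Runx1, the runt-domain factor required for the first blood stem cells of the embryo, had 9.50, 9.80 and 9.71 in the knockout arrays and 8.73, 9.79 and 9.56 in the wild-type arrays. As with Gata2, wild-type replicate 1 was far below the rest, and the remaining wild-type values fell inside the knockout range. The log2 fold change was 0.31 (SE 0.26, limma adjusted p = 0.466) with all arrays and -0.01 without wild-type replicate 1 (95% interval -0.31 to 0.30).

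Erg is an ETS factor on which adult stem cells depend for their upkeep. It had 8.99, 9.28 and 8.999 in the knockout arrays, against 9.13, 9.76 and 9.67 in the wild-type arrays. Knockout replicate 2 exceeded wild-type replicate 1, so the groups overlapped by this 1 pair, and wild-type replicates 2 and 3 lay above all knockouts. The means were 9.09 ± 0.17 in knockout and 9.52 ± 0.34 in wild-type (SD, n = 3 each). The log2 fold change was -0.43 (SE 0.20, limma adjusted p = 0.244), and p = 0.2 came from an exact permutation test, two-sided, for which 0.1 is the smallest value that 3 against 3 arrays allow. When wild-type replicate 1 was left out, Erg fell by 0.62 on the log2 scale (SE 0.12, 95% interval -0.92 to -0.33, limma adjusted p = 0.0419).

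The value of Erg was negative under all 17 alternatives, from -0.80 to -0.28, and passed limma under 5 of them. These were the fit without wild-type replicate 1, cyclic loess normalization (-0.73, limma adjusted p = 0.0427), array weights (-0.57, limma adjusted p = 0.0355), and quantile or cyclic loess normalization combined with leaving out that array. With the replicate number as a block it did not pass (limma adjusted p = 0.164). That block, leaving out dim genes, the variance options other than array weights, and the mean of rows kept the main value of -0.43. Their sign was fixed in advance and adds nothing on its stability. Leaving out any array other than wild-type replicate 1 gave -0.53 to -0.31, none past the threshold. The call for Erg thus changed with the treatment of wild-type replicate 1 and with the normalization, and its sign did not. In a bulk sample, fewer cells that express Erg and less Erg RNA per cell cannot be told apart.

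Fli1, the nearest relative of Erg and a regulator of megakaryocyte genes, had 9.55, 9.85 and 9.79 in the knockout arrays and 9.37, 9.87 and 9.76 in the wild-type arrays. The values interleaved apart from a low wild-type replicate 1. The log2 fold change was 0.06 (SE 0.17, limma adjusted p = 0.823), with a 95% interval of -0.34 to 0.46, and -0.08 without wild-type replicate 1 (-0.37 to 0.20).

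**Figure D2:**
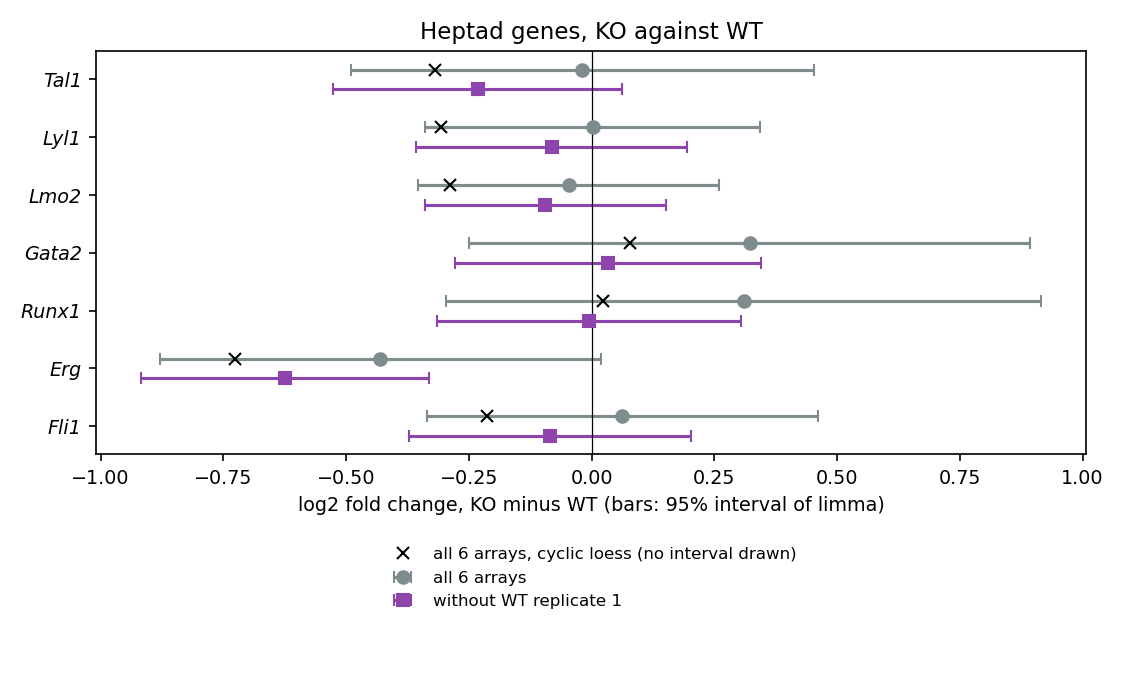
Log2 fold change, KO minus WT, of each heptad gene with its 95% interval from limma, with all 6 arrays (grey circles) and without WT replicate 1 (purple squares); crosses are cyclic loess values with no interval drawn. The interval of Erg excludes 0 without WT replicate 1 (-0.92 to -0.33), and those of the other 6 genes include 0 in both fits.

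When all genes were put in 3 equal classes by mean signal, all 7 members lay in the brightest one, and in that class most fold changes ran above 0. Its 6646 genes had a median log2 fold change of 0.30, with quartiles at 0.12 and 0.48, and a median of 0.13 without wild-type replicate 1. Of the 7 members, 5 lay below the median of that class with all arrays and 7 without wild-type replicate 1. Over all 19938 genes, 9.52% had a lower log2 fold change than Erg, and 1.76% without wild-type replicate 1. For Tal1 these shares were 52.4% and 17.5%, and for Gata2 79.2% and 60.1%.

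**Figure D3:**
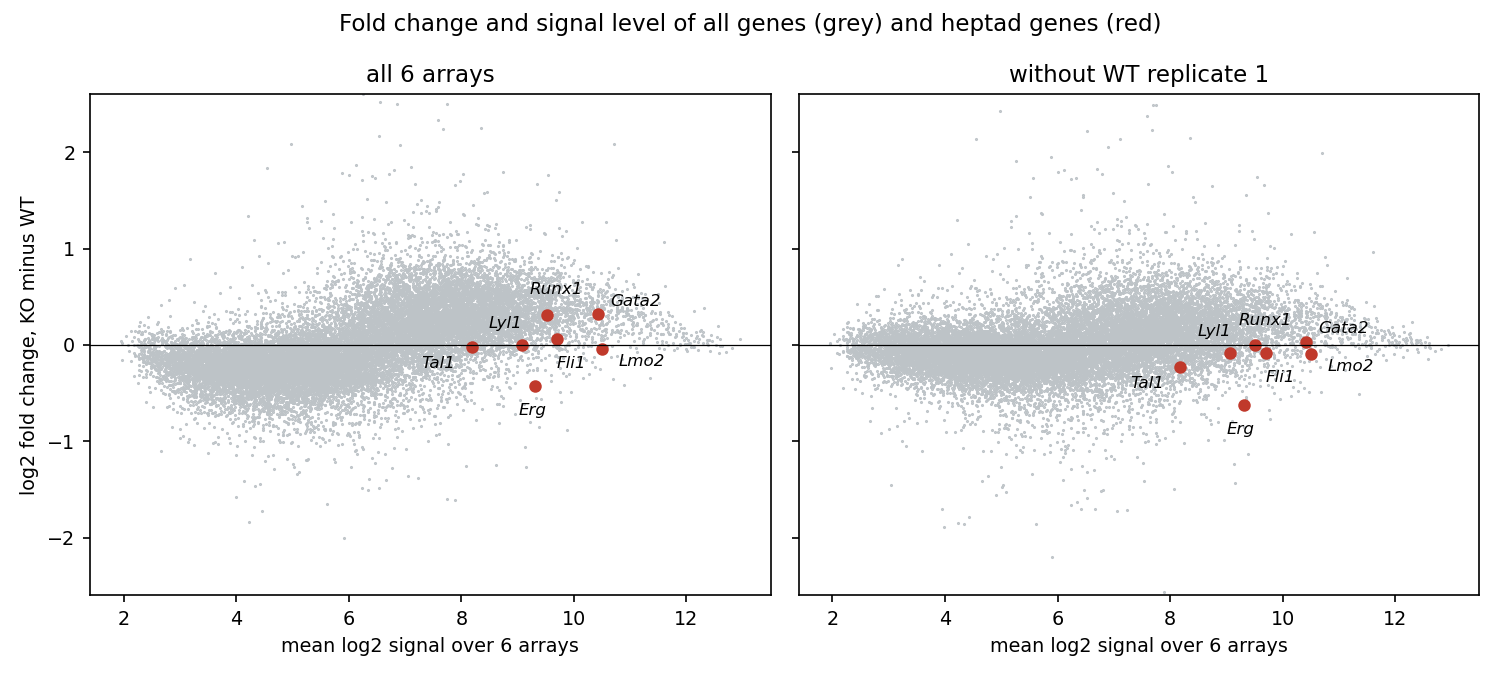
Log2 fold change, KO minus WT, against mean log2 signal for all 19938 genes (grey) and the 7 heptad genes (red), with all 6 arrays (left) and without WT replicate 1 (right). The axis stops at 2.6 in each direction, which leaves out 12 and 13 genes. Erg lies toward the lower edge of the cloud at its signal level in both panels, and the other members lie within the cloud.

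Differences between members within an array do not depend on a shift that all genes of an array have in common. They can depend on the spread of an array's signals, which was wider in the knockout arrays, and its part was not tested. Relative to Fli1, Erg was lower in the knockout arrays by 0.49 in the means, and by 0.54 without wild-type replicate 1. The 3 knockout values of this difference lay below all 3 wild-type values, wild-type replicate 1 included. Of all other genes, 6.3% were lower in knockout without overlap when set against Fli1 in the same way. Relative to Lyl1 and Tal1, Erg was lower without overlap by 0.43 and 0.41 (against 6.76% and 2.38% of all genes), and relative to Runx1 and Gata2 by 0.74 and 0.75 (against 11% and 14.8%). Relative to Lmo2 it was lower by 0.38, with overlap (6.36% of all genes were lower without overlap). When other genes were set against Erg, 0.281% were lower in knockout without overlap. Among the 21 pairs of members 6 did not overlap, and 5 of the 6 included Erg; the remaining one was Tal1 with Gata2, with Tal1 lower by 0.34. These differences were looked at after the values were known and are given as a description, with no test.

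**Figure D4:**
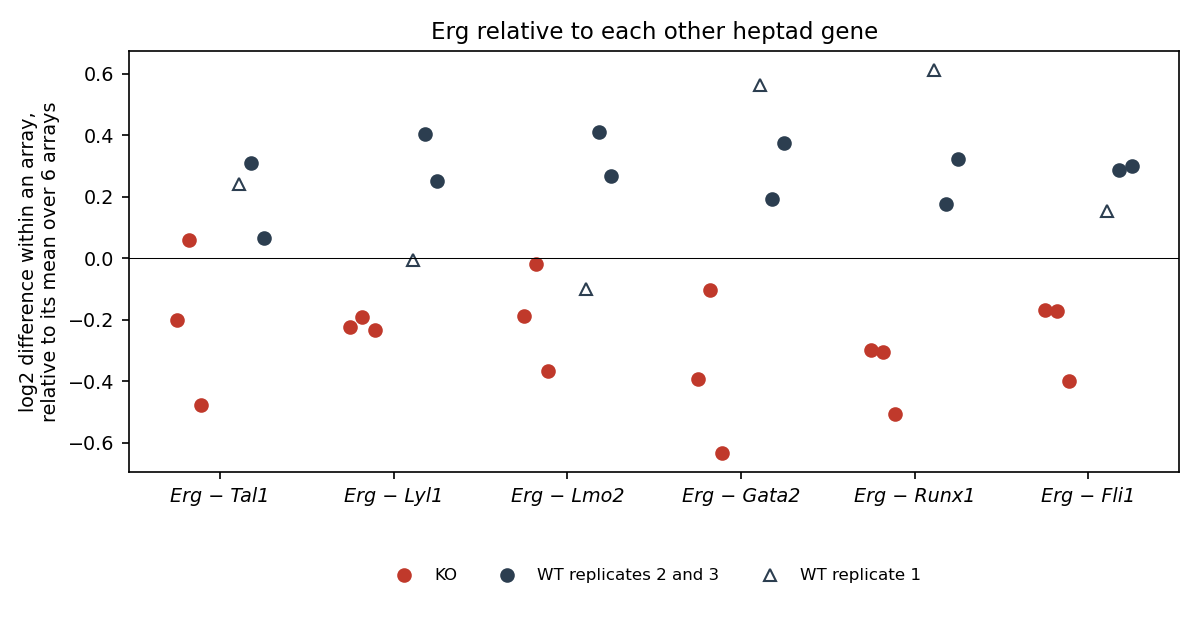
Log2 difference between Erg and each other heptad gene within an array, each shown relative to its mean over the 6 arrays, with KO arrays in red to the left of WT arrays in dark blue; the open triangle is WT replicate 1. KO values lie below all WT values for 5 of the 6 genes, and for Lmo2 the WT replicate 1 value falls among the KO values.

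The members fell into patterns over the 6 arrays that were compared by the root mean square difference of their signals, each gene centred on its own mean. Lyl1 and Lmo2 were the closest pair (0.10 log2 units), followed by Gata2 with Runx1 (0.11), and Lyl1 with Fli1 (0.11). Gata2 and Runx1 share the low value of wild-type replicate 1. Erg was farthest from Gata2 (0.42) and nearest to Lyl1 (0.25), so that each other member had a closer partner within the group than Erg had. Among the 9968 other genes with a mean at or above the median, those nearest to each member were Rrm2b and Amigo3 for Tal1, Tes and Acss2 for Lyl1, Gm4750 and Trmt2b for Lmo2, Rap2b and Slf2 for Gata2, Znhit2 and Arfip1 for Runx1, Rbpms and Capn5 for Erg, and Lrrfip1 and Zfp52 for Fli1. Their differences ran from 0.02 for Tes to 0.07 for Capn5. Rbpms, which encodes an RNA-binding protein, had 8.47, 8.90 and 8.52 in the knockout arrays and 8.66, 9.28 and 9.31 in the wild-type arrays, high and low on the same arrays as Erg. All genes of an array share its RNA and its normalization, so this likeness is a description with no test.

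Partners and cofactors of the heptad gave 0 of 21 past limma in either direction, where 0.818% of all genes passed. At an unadjusted p under 0.05, 1 of the 21 passed, beside 21.6% of all genes. Without wild-type replicate 1, 0 of 21 passed, where 4.66% of all genes did. In that fit 3 had an unadjusted p under 0.05, as had 24.1% of all genes. The median log2 fold change of the 21 was 0.11, or -0.08 without wild-type replicate 1, -0.12 with quantile normalization and -0.13 with cyclic loess. The E proteins, which pair with Tal1 and Lyl1 in their dimers, had log2 fold changes of -0.10 (Tcf3), -0.03 (Tcf4) and 0.07 (Tcf12), and of -0.32, -0.26 and -0.18 without wild-type replicate 1. Ldb1, the scaffold that Lmo2 holds, had 0.11, and Cbfb, the partner of Runx1, had 0.14, and these values were -0.08 and 0.01 without that array. The smallest p values belonged to Id1, an inhibitor that ties up E proteins (0.31, limma adjusted p = 0.209), and to the histone demethylase gene Kdm1a (0.31, limma adjusted p = 0.267), whose sign turned under cyclic loess normalization (-0.01).

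Members of the same protein families gave 0 of 19 measured past limma, where 0.818% of all genes passed. The unadjusted threshold of 0.05 let through 3 of the 19, all as higher, beside 13.8% of all genes as higher. The median log2 fold change of the 19 was 0.11, with quantile normalization -0.07 and with cyclic loess -0.15. Without wild-type replicate 1 the median was -0.06 and 1 of the 19 passed as lower, the ETS repressor gene Etv3. Of all genes, 1.38% were called lower in the same fit. Etv3 had 7.26, 7.43 and 7.25 in the knockout arrays and 6.63, 7.82 and 7.84 in the wild-type arrays. Its log2 fold change was -0.12 with all arrays (limma adjusted p = 0.807) and -0.52 without wild-type replicate 1 (limma adjusted p = 0.0424), and it was 0.03 with arrays centred on their medians, a setting that shifts every gene alike. Runx2 and Fev were not analysed here.

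Genes described as regulated by heptad factors in blood or endothelial cells held more that passed. Of 23 measured of 26 listed, 3 rose, 0 fell and 20 did not pass, with a median log2 fold change of 0.03 (-0.10 with quantile normalization and with cyclic loess). The share of all genes called higher was 0.687%. Without wild-type replicate 1, 3 rose and 3 fell, where 3.28% of all genes were called higher and 1.38% lower, and the median was -0.09.

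The 3 higher genes belong to the myeloid and mast cell side. Csf1r, the receptor of macrophage colony-stimulating factor and a Runx1 target, had 7.01, 7.43 and 6.82 in the knockout arrays and 5.40, 5.47 and 5.27 in the wild-type arrays, a 3.27-fold rise (log2 fold change 1.71, SE 0.18, limma adjusted p = 0.00871). Mpo, the myeloperoxidase gene, had 12.16, 12.17 and 12.07 in the knockout arrays and 10.85, 11.23 and 11.11 in the wild-type arrays, a 2.10-fold rise (limma adjusted p = 0.0268). Hdc, the histidine decarboxylase gene and a Gata2 target, had 8.70, 8.75 and 8.73 in the knockout arrays and 6.45, 7.46 and 7.28 in the wild-type arrays, a 3.16-fold rise (limma adjusted p = 0.035). All 3 had no overlap between groups, with knockout higher, as had 19.2% of all genes. The call of Hdc was lost under quantile normalization (limma adjusted p = 0.0594), and leaving out single arrays moved the limma adjusted p of Csf1r between 0.0108 and 0.0634, of Mpo between 0.0108 and 0.203 and of Hdc between 0.00331 and 0.203. The call of Csf1r was lost without knockout replicate 1 (limma adjusted p = 0.0632) and without wild-type replicate 3, and the calls of Mpo and Hdc were lost when any one knockout array was left out (limma adjusted p of 0.158 to 0.203) and without wild-type replicate 3 (limma adjusted p = 0.0791 for both). In the same arrays 8 of 13 neutrophil and monocyte markers rose, a list that also holds Mpo, where 0.687% of all genes were called higher. Of the 8, Cebpe was not called under quantile (limma adjusted p = 0.0659) or cyclic loess normalization (limma adjusted p = 0.0721). Leaving out any array other than wild-type replicate 1 also lost it (limma adjusted p of 0.0829 to 0.229). F13a1 was not called without knockout replicate 1 (limma adjusted p = 0.0632) or 2 (limma adjusted p = 0.0598). The other 5 of the 13 did not pass with all arrays. Of them S100a9 (-0.71, limma adjusted p = 0.226) and Ltf (-0.30, limma adjusted p = 0.338) lay lower in every knockout array than in any wild-type array. So did 15.4% of all genes. Ltf was in the dimmest class of genes by mean signal, whose median log2 fold change was -0.22. S100a8 (0.42), Lyz2 (0.02) and Camp (-0.01) overlapped. The mean log2 signal of those 13 was 8.91, 8.89 and 8.75 in knockout and 7.39, 7.32 and 7.33 in wild-type. The part of such cells in the values of the 3 genes was not tested.

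The 3 genes that fell without wild-type replicate 1 are known for their role in stem cells. Mecom, a zinc finger factor gene of long-term stem cells, had 5.55, 6.17 and 5.86 in the knockout arrays and 6.50, 7.07 and 7.67 in the wild-type arrays, with no overlap. Its log2 fold change was -1.22 with all arrays (SE 0.29, limma adjusted p = 0.0916) and -1.51 without wild-type replicate 1 (limma adjusted p = 0.024). It also passed with the replicate number as a block (-1.22, limma adjusted p = 0.0268). Meis1, a homeobox gene, had 9.24, 9.58 and 9.62 in the knockout arrays and 9.72, 10.14 and 10.35 in the wild-type arrays. Like Mecom it had no overlap, as had 15.4% of all genes with knockout lower. Its log2 fold change was -0.59 (limma adjusted p = 0.161), and -0.76 without wild-type replicate 1 (limma adjusted p = 0.039). Kit, the receptor used in the sort, had 10.02, 10.18 and 10.17 in the knockout arrays and 10.08, 10.58 and 10.63 in the wild-type arrays, with log2 fold changes of -0.30 (limma adjusted p = 0.327) and, without wild-type replicate 1, of -0.48 (limma adjusted p = 0.04999).

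**Figure D5:**
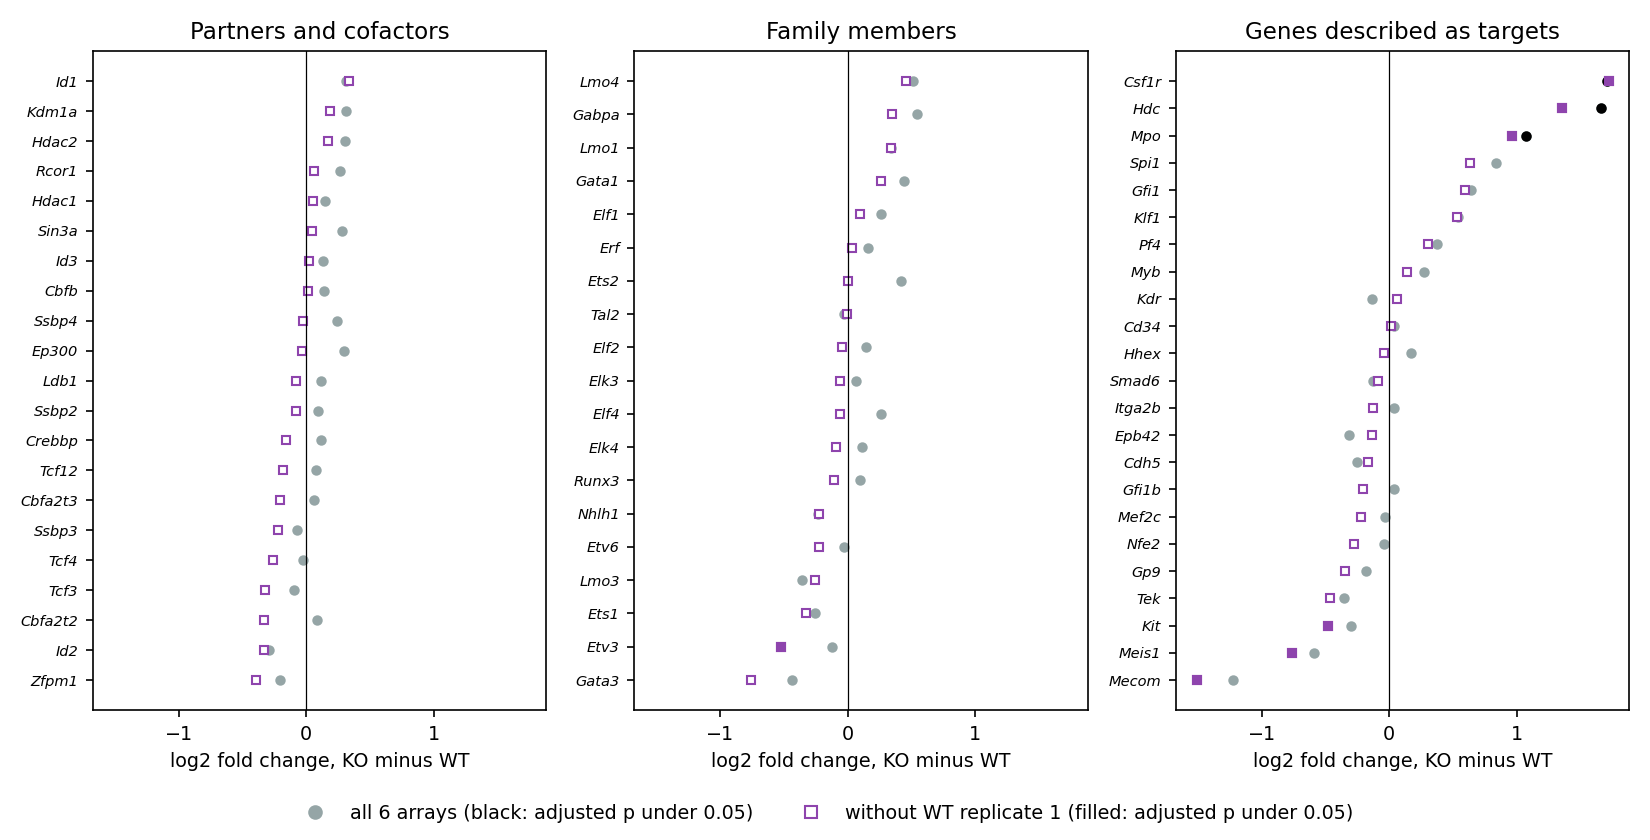
Log2 fold change, KO minus WT, of 21 partners and cofactors (left), 19 family members (middle) and 23 genes described as targets (right), with all 6 arrays (circles) and without WT replicate 1 (squares); filled black circles and filled squares passed limma at an adjusted p under 0.05. Csf1r, Hdc and Mpo are past the threshold on the right of 0, and Etv3, Kit, Meis1 and Mecom pass on the left in the fit without WT replicate 1.

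Erg and Fli1 also mark endothelium, and Fli1, Gata2 and Runx1 mark megakaryocytes, so markers of those cells were read on the same arrays. The mean log2 signal of 13 endothelial markers was 5.28, 5.39 and 5.34 in knockout and 5.75, 5.51 and 5.73 in wild-type, lower in every knockout array. Single markers differed in direction: 9 had negative log2 fold changes, led by Emcn (-1.48), Robo4 (-0.96) and Tie1 (-0.93), and Plvap (0.17), Flt1 (0.12), Sele (0.06) and Fabp4 (0.05) had positive ones. Plvap and Sele lay higher in every knockout array than in wild-type replicates 2 and 3, as did 21.1% of all genes. With all arrays, 6 of the 13 lay lower in every knockout array than in any wild-type array, and 0 higher. Of all genes, 15.4% lay lower in that way and 19.2% higher. None of the 13 passed limma with all arrays, where 0.818% of all genes did. An unadjusted p under 0.05 was reached by 3, all lower, where 7.76% of all genes were lower at that threshold. Tie1 (log2 fold change -1.01) and Robo4 (-1.07), which blood stem cells also express, fell without wild-type replicate 1, and those and Emcn did with the replicate block. Of all genes, 1.38% were called lower without that array and 0.451% with the block. Cdh5, Kdr, Flt4, Sox17 and Fabp4, 5 of the 13, lay in the dimmest class of genes. That class had a median log2 fold change of -0.22, with 11.2% of its genes positive. Only 1 of the 13, Tie1, lay in the brightest class, and the rest in the middle class, with a median of -0.09. The list's median of -0.21 was 0.00 under cyclic loess normalization. Megakaryocyte markers, 8 measured of 11, averaged 7.79, 7.98 and 8.27 in knockout and 7.81, 8.41 and 8.45 in wild-type, with 0 of 8 past limma. Of the 8, 4 had positive log2 fold changes, and 2, Ppbp and Treml1, had an unadjusted p under 0.05, both lower, as had 7.76% of all genes. Pf4 was higher in every knockout array than in any wild-type array (0.37, limma adjusted p = 0.232), as were 19.2% of all genes. Ppbp had 6.85, 7.08 and 7.34 in the knockout arrays and 6.78, 9.44 and 9.87 in the wild-type arrays, and it fell without wild-type replicate 1 (-2.57, limma adjusted p = 0.00236). The part of endothelial cells or megakaryocytes in the values of the heptad genes was not tested.

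The sort label was read through its own genes. Kit, the gene of c-kit, lay in the brightest class of genes, and so did Flt3, the gene of Flk2, for which the cells were sorted as negative. Flt3 averaged 7.67 in knockout and 7.61 in wild-type, a difference of 0.06 (limma adjusted p = 0.881). Cd34, which the sort did not use, averaged 10.8 in both groups, and Ly6a, the gene of Sca-1, was not analysed here. Of 6 measured sort and stem cell markers 0 passed with all arrays, where 0.818% of all genes did. An unadjusted p under 0.05 was reached by 2, Cd48 as higher and Procr as lower. Of all genes, 13.8% were higher and 7.76% lower at that threshold. Cd48, which marks progenitors beyond the stem cell, passed with the replicate number as a block (log2 fold change 0.97, limma adjusted p = 0.0298). In the fit without wild-type replicate 1, Cd48 rose (0.80), and Kit (-0.48) and the stem cell marker Procr (-0.86) fell. That fit called 3.28% of all genes higher and 1.38% lower. Of 13 lymphoid markers measured, Nkg7 rose with all arrays (1.09, limma adjusted p = 0.0483, and 0.0532 with quantile normalization) and 12 did not pass. The share of all genes called higher was 0.687%. The call of Nkg7 was lost when any one knockout array was left out (limma adjusted p of 0.233 to 0.263). It was also lost without wild-type replicate 2 (limma adjusted p = 0.0517) or 3 (limma adjusted p = 0.0878). Leaving out wild-type replicate 1, Nkg7 rose, the T cell gene Cd3d fell (-0.55, limma adjusted p = 0.0492) and 11 did not pass. Of 11 erythroid markers 7 were measured and 0 passed. At an unadjusted p under 0.05, which 21.6% of all genes reached, 3 were higher (Rhag 1.05, Car1 0.61 and Klf1 0.54) and 2 lower (Alas2 -0.53 and Slc4a1 -0.34). The 3 higher ones overlapped between groups through knockout replicate 2, and the 2 lower ones did not overlap, as 15.4% of all genes with knockout lower. Without wild-type replicate 1, 0 were higher and 2 lower at that threshold, beside 13.6% and 10.5% of all genes.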

How the data were processed

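Total RNA of sorted bone marrow cells was amplified with a NuGEN Ovation Pico kit and measured on 1 Affymetrix array per mouse, per the labels' protocols. The authors deposited 1 table of log2 values for 6 arrays, and RMA, Partek and Affymetrix Expression Console stand in the submitters' processing notes. The array is an Exon 1.0 ST chip in the design text, whereas the rows took their gene names from annotation of a Gene 1.0 ST chip. No source used here says whether all arrays were normalized together.

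Of 35557 rows, 21789 had 1 gene symbol, 1621 had several and 12147 had none. The brightest row per gene was kept (999 genes had more than 1), which left 19938 genes. Groups come from the sample titles. The difference of knockout and wild-type was fitted with limma 3.58.1 under R 4.3.3 on the deposited log2 values, two-sided, without covariates (4 residual degrees of freedom), and p-values were adjusted by Benjamini-Hochberg over the 19938 genes, with 0.05 as the threshold. The fit was repeated without wild-type replicate 1. In all 17 alternatives were run (replicate block, normalization, filter on dim genes, variance options, mean of rows, leaving out each array), 2 of them chosen after seeing the data. The number of arrays limits the precision, and the titles name 1 mouse per array.

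Same-numbered knockout and wild-type arrays had correlated deviations from their group means (0.368, 0.119 and 0.162, all over 0.1), so blocked values are given where they change a call. Knockout replicate 3 with wild-type replicate 2 (0.195) and knockout replicate 2 with wild-type replicate 3 (0.183) correlated as well. The remaining differently numbered arrays had negative values. Pairing by number was thus not established by these values. The labels do not say what a number marks. The members and the gene lists were chosen with earlier results of these data known. Named genes were all members, list members past the threshold with or without wild-type replicate 1 (or the 2 with the smallest p), the E proteins, Ldb1 and Cbfb, sort genes, Rela and the 2 genes nearest in pattern to each member. Markers named beside a result and the pairs of members were chosen after their values were seen.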

Additional observations from a re-analysis of the deposited data

How the results depend on the processing

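Values are log2 fold changes, knockout minus wild-type, unless counts are named. Erg was negative under all 17 alternatives. The replicate block, the filter on dim genes, variance options other than array weights and the mean of rows could not change its value. Erg passed limma under 5: cyclic loess (-0.73), array weights (-0.57), without wild-type replicate 1 (-0.62), and without that array under quantile (-0.80) or cyclic loess normalization (-0.78). In each of these 5 settings 1 heptad gene was called lower, against 0 otherwise, and 0 were called higher under any. Leaving out single arrays moved Erg between -0.62 and -0.31, Tal1 between -0.23 and 0.13, Lyl1 between -0.081 and 0.061, Lmo2 between -0.095 and 0.00485, Gata2 between 0.03 and 0.53, Runx1 between -0.0052 and 0.53 and Fli1 between -0.084 and 0.16. Their signs also turned under other settings, with no call at any: with median centring, which adds 0.146 to every gene alike, Tal1 (0.13) and Lmo2 (0.10); under quantile normalization Lyl1 (-0.26) and Fli1 (-0.20); under cyclic loess Lyl1 (-0.31) and Fli1 (-0.21); with array weights Lyl1 (-0.061) and Fli1 (-0.035). Without wild-type replicate 1 under quantile normalization they turned for Lyl1 (-0.23), Gata2 (-0.12), Runx1 (-0.17) and Fli1 (-0.26), and under cyclic loess for Lyl1 (-0.24), Gata2 (-0.10), Runx1 (-0.15) and Fli1 (-0.23). Apart from the centring, the cause was not tested.

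With the replicate number as a block no call of a heptad gene changed (Erg -0.43, limma adjusted p = 0.164). Among all genes, 137 were called higher and 26 lower with all arrays. These counts were 282 and 90 with the replicate block, 1117 and 482 with array weights, 424 and 81 with the dimmest genes left out, where fewer genes were tested, and 86 higher under quantile normalization. They were 70 lower under cyclic loess (149 higher) and 6 lower with median centring (186 higher), 283 and 166 under quantile and 278 and 181 under cyclic loess normalization without wild-type replicate 1. Leaving out single arrays gave 21 to 653 higher and 0 to 276 lower, with the highest counts without wild-type replicate 1. The median of all genes was -0.04, and 0.016 under quantile normalization, 0.10 with median centring and 0.135 without the dimmest genes. Signal over background could not be judged from the table.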
